A study of Sus scrofa domesticus with 4 samples.

Results

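Periostin (POSTN), SPARC, its relative SPARCL1, tenascin C (TNC) and connective tissue growth factor (CTGF, also CCN2), with the small leucine-rich proteoglycans lumican (LUM) and decorin (DCN), were followed in pig myometrium cultured with orexin A (OXA). The 7 genes were taken as every non-control probe whose design annotation is a RefSeq transcript of one of them, which gave 36 of 43603 probes, and 7 of the 3029 genes named on the array. They had been chosen from earlier OXA over non-treated ratios of these same arrays, so those ratios are given here as a description, without a test on the members. There were 9 probes for LUM, 7 each for SPARC and SPARCL1, 6 for POSTN, 4 for DCN, 2 for TNC and 1 for CTGF.

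The explants came from the middle of the uterine horns of 4 gilts (Large White x Polish Landrace, aged 7 to 8 months) on days 15 to 16 of gestation. After 2 h of preincubation they were kept for 24 h with OXA or without it, in medium 199 with albumin and charcoal-stripped calf serum that both groups shared. The dose is 10 nM in the sample labels but 10 µM in the design text, and the sources do not settle it. Each of the 4 Agilent dual-colour arrays carried RNA of OXA-treated explants in 1 dye and of non-treated explants in the other, and the labels do not say outright that both came from the same gilt. Cultures were made in duplicate in 4 separate experiments, and an explant still holds all cell types of the piece of tissue it was cut from.

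Matricellular proteins are secreted into the extracellular matrix, where they act on cells and on matrix assembly more than they bear load. Small leucine-rich proteoglycans bind collagen and govern how thick and how regular its fibrils become. In the uterus both groups belong to the connective tissue that runs between the bundles of smooth muscle and is rebuilt through pregnancy. In a bulk explant, fewer cells of a type and less RNA per cell cannot be told apart.

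By the sample labels, Cy5 marked the OXA sample on arrays 1 and 3, and Cy3 marked it on arrays 2 and 4. Ratios are log2 of OXA over non-treated from the deposited value table, and levels are the scanner's processed signals, in intensity units that are comparable between the 2 channels of an array but were not scaled between arrays. The direction of array 2 is not settled. Its log2 ratios over the 19505 tested probes, which share these arrays and are no replicates, had r = -0.38 with array 4, of the same dye orientation, and r = -0.59 with array 1. Arrays 1 and 4 had r = 0.62. Array 3 had r = 0.23 with array 1, r = -0.30 with array 2 and r = -0.058 with array 4, so arrays other than array 2 differed as well. The text on labelling reads as if OXA had been in Cy5 throughout, which would turn array 4 as well as array 2. Read so, arrays 1 and 2 had r = 0.59, but arrays 1 and 4 had r = -0.62. Arrays 2 and 4 still had r = -0.38. Results for the members are therefore given as labelled and with the sign of array 2 turned. Values of other genes are as labelled unless stated. A probe was tested if 1 of the groups, OXA or non-treated, had it well above background on 3 or more arrays. Of the 36 member probes, 35 were tested, and these were well above background in both channels of all 4 arrays.

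POSTN and SPARCL1 had the widest ratios, and these pointed different ways on different arrays. Periostin, a ligand of integrins that promotes collagen crosslinking, read 13405, 34116, 31154 and 9690 in the OXA channel of arrays 1 to 4 with its brightest probe (A_72_P618531). The same probe read 30125, 10899, 53767 and 43676 in the non-treated channel. It was thus lower with OXA on arrays 1, 3 and 4 and higher on array 2, and the signals of both channels overlapped over the 4 arrays. The log2 ratios were -1.17, 1.65, -0.79 and -2.17, with a mean of -0.62 ± 1.62 (SD, n = 4). All 4 ratios were negative with array 2 turned, and the mean was then -1.44 ± 0.60, or 2.72-fold lower.

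The 6 POSTN probes, which stand for transcripts NM_001206347 and NM_001206351, gave the same picture on every array. They spanned -1.23 to -1.01 on array 1, 1.54 to 1.70 on array 2, -1.01 to -0.65 on array 3 and -2.35 to -1.09 on array 4. The median SD between probes of the gene within an array was 0.10, against an SD of 1.58 between the array medians. The SD between probes was highest on array 4, at 0.46, where A_72_P565354 read -1.09 beside -2.35 for the lowest probe.

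SPARCL1, also called hevin, is a matricellular relative of SPARC that is abundant in vessel walls and smooth muscle. Its brightest probe (A_72_P178051) read 13767, 20826, 34284 and 15785 in the OXA channel of arrays 1 to 4, a 2.49-fold range. In the non-treated channel it read 49000, 8379, 20702 and 101984, a 12.2-fold range. With the channels of array 2 exchanged, these ranges were 4.09-fold with OXA and 4.93-fold without. As labelled, the non-treated signal of array 4 was the highest of all 8 and that of array 2 the lowest. The log2 ratios were -1.83, 1.31, 0.73 and -2.69, with a mean of -0.62 ± 1.94 (SD, n = 4). With array 2 turned the mean was -1.28 ± 1.45, and array 3 remained on the other side of 0.

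All 7 SPARCL1 probes were negative on arrays 1 and 4 and positive on arrays 2 and 3. They spanned -1.92 to -1.54 on array 1, 0.98 to 1.33 on array 2, 0.36 to 0.73 on array 3 and -2.69 to -2.17 on array 4. On array 3 this range lay apart from that of POSTN, whose 6 probes were all negative there, while the signs of the 2 genes were the same on the other 3 arrays. After each channel was divided by its own upper quartile, the log2 level of SPARCL1 had an SD over the 4 arrays of 1.30 to 1.42 in the non-treated channel and 0.48 to 0.65 in the OXA channel. The non-treated channel was the wider one for 7 of 7 SPARCL1 probes, but for 14 of all 35 member probes and 34.5% of all tested probes. These SDs, once array 2 was turned, were 0.88 to 1.03 in the non-treated and 0.67 to 0.85 in the OXA channel. The non-treated channel was then still the wider one for 7 of 7 SPARCL1 probes, but so it was for 7 of 7 SPARC probes and the 1 CTGF probe. It was the wider one for 18 of 35 member probes and 33.2% of all tested probes.

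**Figure D1:**
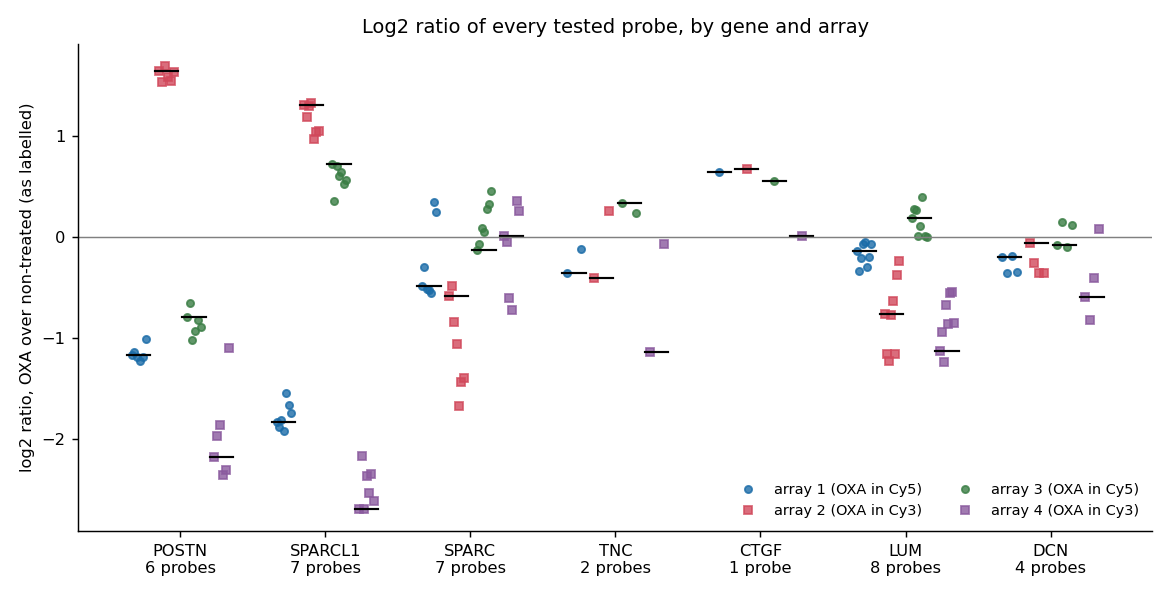
Log2 ratio of OXA over non-treated (vertical axis, as labelled) for each of the 35 tested probes, grouped by gene and coloured by array, with circles for OXA in Cy5, squares for OXA in Cy3 and a black bar at the brightest probe of the gene. Probes of POSTN and SPARCL1 share a sign on each array, with POSTN spread from -2.35 to -1.09 on array 4, while probes of SPARC lie on both sides of 0 on arrays 1, 3 and 4.

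SPARC, the collagen-binding glycoprotein for which the family is named, differed far less between the channels. Its brightest probe (A_72_P444699) read 16145, 9099, 13863 and 23281 with OXA and 22500, 13616, 15079 and 23113 without. OXA was the lower channel on arrays 1, 2 and 3, and on array 4 the channels were nearly equal. The log2 ratios were -0.48, -0.58, -0.12 and 0.010, with a mean of -0.29 ± 0.28 (SD, n = 4), and the signals of both channels overlapped. With array 2 turned the mean was -0.0020 ± 0.44, and with array 2 left out it was -0.20 ± 0.25. How far the mean of SPARC lay below 0 thus depends on how array 2 is read.

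SPARC and SPARCL1 probes did not overlap on array 2, where the 7 SPARC probes spanned -1.67 to -0.48 and all SPARCL1 probes were positive. Probes of SPARC also disagreed among themselves, with a median SD within an array of 0.42. A pair of probes (A_72_P130355 and A_72_P554191) had positive ratios on arrays 1, 3 and 4, from 0.25 to 0.46, and ratios of -1.43 and -1.40 on array 2. By contrast, A_72_P615272 and A_72_P638165 had -0.51 and -0.53 on array 1 and -0.60 and -0.72 on array 4. A further probe, A_72_P639642, had a level that, as the mean of both channels, ranged 6.12-fold over the arrays, against 1.56-fold to 2.25-fold for the other 6 probes. Its spot carried an outlier flag on array 4, so its mean of -0.65 ± 0.98 (SD, n = 3) leaves that array out. All of these are annotated to 1 transcript (NM_001031794), and which of them tracks its level best was not tested.

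Tenascin C, a hexameric glycoprotein of tissues under remodelling, had 2 probes of different behaviour. The brighter one (A_72_P035426) read 1598, 6775, 8553 and 7216 with OXA and 2035, 8978, 6775 and 15883 without. The OXA channel was lower on arrays 1, 2 and 4 and higher on array 3. Its log2 ratios were -0.35, -0.41, 0.34 and -1.14, with a mean of -0.39 ± 0.60 (SD, n = 4), or -0.19 ± 0.72 with array 2 turned. The dimmer probe (A_72_P638389) had -0.11, 0.26, 0.24 and -0.067, with a mean of 0.080 ± 0.20, and thus differed in sign from the first on array 2 and lay near 0 on array 4.

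The level of TNC set array 1 apart in both channels. As the mean of both channels over their upper quartiles, array 1 lay 4.10-fold below the next array with the brighter probe and 3.60-fold below it with the dimmer one. The SD of this log2 level over the 4 arrays was 1.09 and 1.06 for the 2 probes, against a median of 0.37 over all tested probes, and 2.79% of those had an SD at least as wide as the brighter TNC probe. This measure takes both channels together, so it keeps its value whichever way an array is turned. POSTN was highest on array 3 and SPARCL1 lowest on array 2 by the same measure, with SDs of 0.50 to 0.70 and 0.51 to 0.60 over their probes. DCN varied least, with SDs of 0.20 to 0.28.

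**Figure D2:**
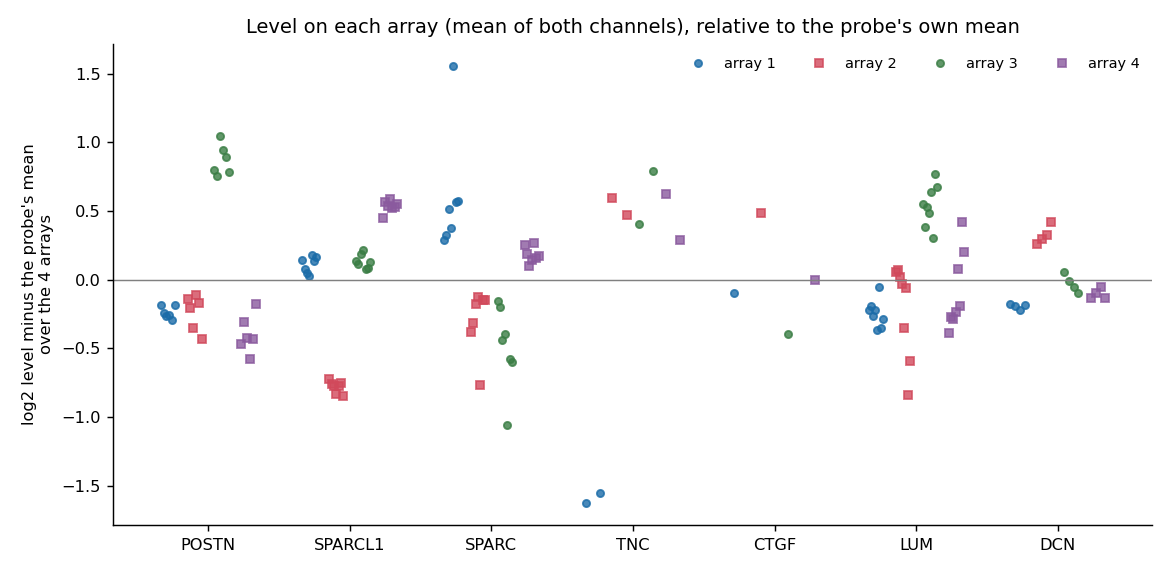
Log2 level of each tested member probe on each array, as the mean of both channels over their upper quartiles, minus the mean of the probe over the 4 arrays (vertical axis), grouped by gene and coloured by array. Both TNC probes lie lowest on array 1, the 7 SPARCL1 probes lie lowest on array 2, and the 4 DCN probes stay closest to 0.

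CTGF, a CCN family protein that TGF-beta and stretch are known to induce, was the one member that was not lower with OXA on any array as labelled. Its single probe (A_72_P223817) read 2103, 2962, 1710 and 2247 with OXA and 1347, 1848, 1161 and 2233 without. OXA was the higher channel on arrays 1, 2 and 3 by 1.47-fold to 1.60-fold, the channels were nearly equal on array 4, and the signals overlapped across arrays. The log2 ratios were 0.64, 0.68, 0.56 and 0.0094, with a mean of 0.47 ± 0.31 (SD, n = 4). The mean with array 2 turned was 0.13 ± 0.61. With 1 probe, the spread between probes of this gene could not be measured.

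Lumican, a keratan sulfate proteoglycan that limits collagen fibril growth, had lower OXA than non-treated signals on 3 arrays. Its brightest probe (A_72_P769870) read 747, 679, 1473 and 590 with OXA and 820, 1147, 1287 and 1290 without. The exception was array 3, where OXA was slightly higher. The log2 ratios were -0.14, -0.76, 0.19 and -1.13, with a mean of -0.46 ± 0.60 (SD, n = 4), or -0.079 ± 0.79 with array 2 turned. All 8 tested probes were negative on arrays 1, 2 and 4 and positive on array 3, where they spanned 0.0048 to 0.40. The ninth probe (A_72_P593744) was well above background only in the OXA channel of array 3 and the non-treated channel of array 4, so it was not tested.

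Decorin, a chondroitin or dermatan sulfate proteoglycan that binds collagen and TGF-beta, was the steadiest of the 7 genes. Its brightest probe (A_72_P596994) read 31007, 40854, 39090 and 34744 with OXA and 35467, 42393, 41109 and 52364 without. The OXA channel was lower on all 4 arrays, by 1.04-fold to 1.51-fold, and the signals of both channels overlapped across arrays. The log2 ratios were -0.19, -0.053, -0.073 and -0.59, with a mean of -0.23 ± 0.25 (SD, n = 4), or -0.20 ± 0.28 with array 2 turned. The 4 probes averaged -0.32 to -0.12 as labelled and -0.20 to 0.055 with array 2 turned.

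DCN and LUM lie next to each other in the RefSeq annotation of assembly Sscrofa11.1, with KERA, a further small leucine-rich proteoglycan gene, on the other side of LUM. The ratios of their brightest probes had the same sign on 3 of 4 arrays and differed by a root mean square of 0.46. LUM was closer to TNC, with a root mean square difference of 0.22 and the same sign on all 4 arrays. The 2 members farthest apart were SPARCL1 and CTGF, at 1.86. These differences compare genes on the same 4 arrays and have no test.

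**Figure D3:**
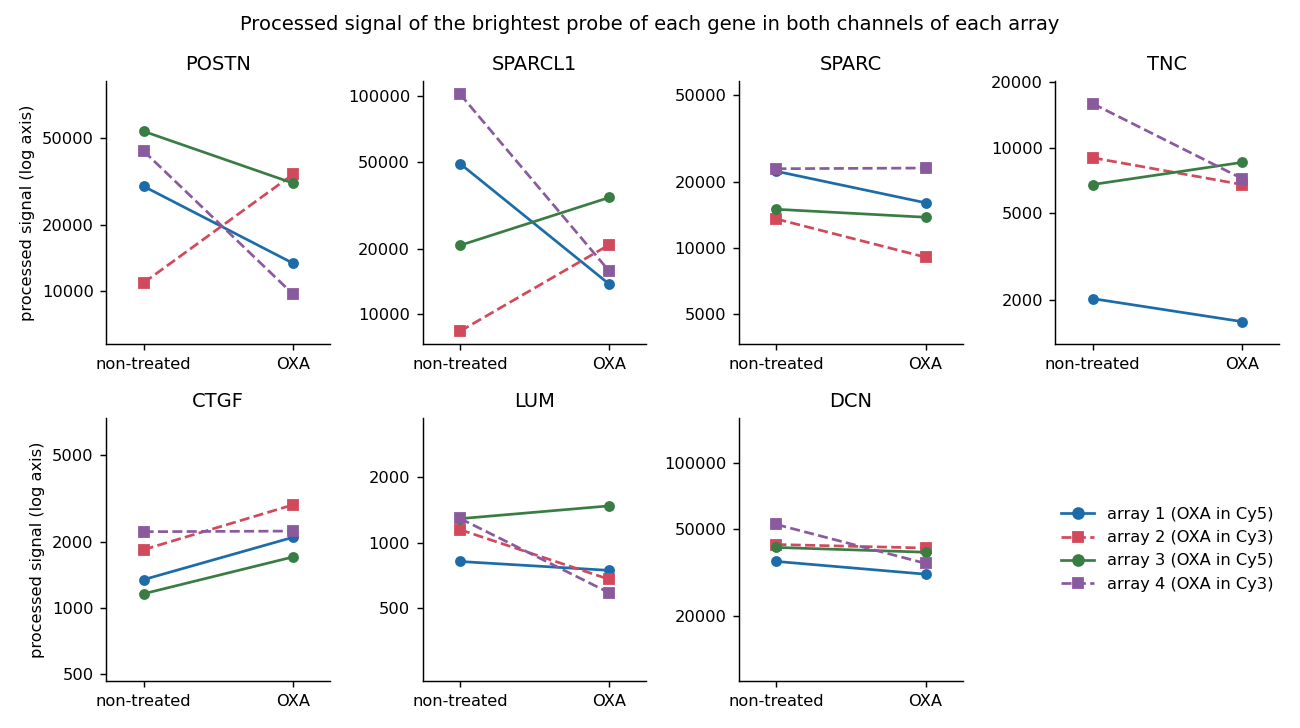
Processed signal (log axis) of the brightest probe of each gene in the non-treated and the OXA channel, joined by a line for each array, with dashed lines and squares for OXA in Cy3. As labelled, SPARCL1 spans 8379 to 101984 in the non-treated channel and 13767 to 34284 with OXA (20702 to 101984 and 8379 to 34284 with array 2 turned), and the lines of DCN are nearly flat.

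The scanner's own error model sets what a single array can resolve. Its error of a member's log2 ratio ran from 0.20 to 0.32, with a median of 0.22. Of 139 ratios of tested member probes on single arrays, 85 were larger than 2 such errors (61.2%), beside 42.2% over all tested probes. Probes of a gene are no replicates, and the members were chosen with these ratios known, so nothing is read from the difference. It also varied by gene. The ratios of the brightest probe were 3.64 to 7.60 errors for POSTN and 3.39 to 8.35 for SPARCL1, but 0.26 to 2.80 for DCN. As labelled, the means over 4 arrays were smaller than the SD between arrays for POSTN, SPARCL1, TNC, LUM and DCN, about equal to it for SPARC and larger for CTGF. With array 2 turned, the mean was larger than the SD for POSTN and smaller for the other 6 genes.

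limma called 0 of the 35 member probes for OXA at an adjusted p under 0.05, and 0% of the 19505 tested probes. At an unadjusted p under 0.05 it had 0 member probes and 237 probes in all (1.22%). With array 2 left out it called 12 member probes, 7 of SPARCL1 and 5 of POSTN, all lower with OXA, beside 1108 probes in all (5.68%). In that fit array 4 alone had OXA in Cy3, so it weighed more than array 1 or array 3. On array 3 all 7 SPARCL1 probes were higher with OXA. That fit rests on 1 residual degree of freedom per probe. The choice of the members also used this contrast, so nothing is read from the count. With array 2 turned it again called 0 member probes and 0 in all, with 5264 of the tested probes at an unadjusted p under 0.05.

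Lower ratios on all 4 arrays as labelled were seen for 3 member probes, 1 of SPARC and 2 of DCN, which is 8.57% of the members beside 3.75% of all tested probes. Higher ratios on all 4 were seen for the CTGF probe, which is 2.86% beside 3.94%. Once array 2 was turned, the 6 POSTN probes were lower on all 4 arrays, 17.1% of the members beside 17.7% of all tested probes. This pair of SPARC probes, A_72_P130355 and A_72_P554191, was then higher on all 4, 5.71% beside 17.6%.

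**Figure D4:**
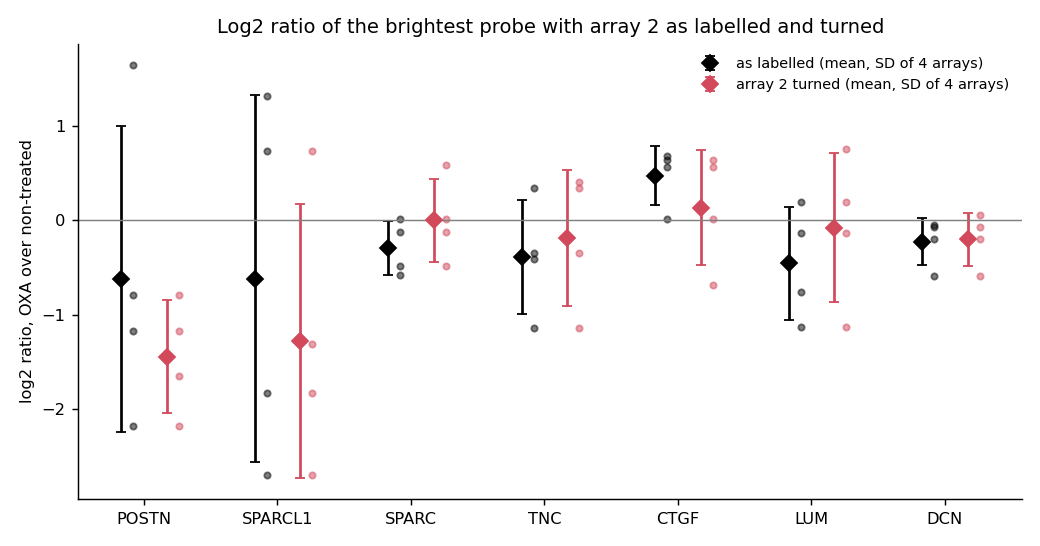
Log2 ratio of OXA over non-treated of the brightest probe of each gene, with array 2 as labelled (black) and turned (red), where diamonds with bars are the mean and SD of 4 arrays and dots are single arrays. POSTN goes from -0.62 ± 1.62 to -1.44 ± 0.60, and SPARC from -0.29 to -0.0020.

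Over the 7 genes, with the brightest probe of each, the median log2 ratio was -0.35, -0.053, 0.19 and -1.13 on arrays 1 to 4, with a mean of -0.33 ± 0.57 (SD, n = 4), or -0.31 ± 0.59 with array 2 turned. Of the 7 genes, 6 were negative on array 1, 4 on array 2, 3 on array 3 and 5 on array 4. Over all tested probes the medians were 0.0034, -0.046, 0.0017 and 0.0093, and over the brightest probes of 1985 named genes they were 0.25, -0.22, 0.021 and 0.29. The members thus lay below both medians on arrays 1 and 4 and above both on array 3.

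A shift between the dyes was not part of how the members were chosen and was fitted for each probe beside OXA. limma called 0 of 35 member probes for it, and 0% of all tested probes, with 0 members and 479 probes in all (2.46%) at an unadjusted p under 0.05. The member estimates ran from -0.61 to 0.77 on the log2 scale. Their median size was 0.26, beside 0.19 over all tested probes. Among the brightest probes as labelled, LUM had 0.49 and TNC 0.38. With array 2 turned, array 4 alone has OXA in Cy3, so the term sets array 4 against the other arrays. A shift between the dyes then cannot be told apart from array 4 itself. The term was 0.94 for SPARCL1, 0.70 for LUM and 0.63 for TNC, so the order of the genes rests on how array 2 is read. If Cy5 is taken to hold OXA throughout, the mean ratio of a brightest probe is the same number as its dye term as labelled. It was 0.49 for LUM, 0.38 for TNC, 0.13 for CTGF, 0.095 for DCN and 0.069 for SPARCL1. POSTN had -0.36 and SPARC -0.0073.

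Of 19 other matricellular genes listed, 3 were named on the array. THBS1, a thrombospondin that activates TGF-beta, had a log2 ratio of -0.07 ± 0.26 (SD, n = 4). SPP1, osteopontin, had 0.18 ± 0.21, and TNXB, a tenascin of collagen fibrils, had -0.38 ± 0.60. Their means with array 2 turned were 0.031, -0.0054 and 0.034. Of 8 other small leucine-rich proteoglycans, ASPN was named and was not above background on enough arrays to be tested. Of 10 fibrillar and associated collagens, 3 were tested. COL1A2, a chain of type I collagen, had -0.14 ± 0.31, COL5A1 had -0.10 ± 0.68 and COL5A2 had 0.07 ± 0.31, or 0.074, 0.30 and 0.089 with array 2 turned. The array medians of these 3 collagens were -0.28, -0.43, 0.15 and 0.45, so their median was higher with OXA on array 4, where 5 of the 7 members were lower. On that array COL5A2 and COL5A1 were higher, at 0.45 and 0.78, but COL1A2 was lower, at -0.32.

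Enzymes of collagen synthesis and elastic fibre genes were few. Of 12 genes of collagen synthesis and crosslinking, 3 were tested. LOX, the crosslinking enzyme lysyl oxidase, had 0.06 ± 0.41, P4HA1, a prolyl hydroxylase, had -0.05 ± 0.24, and SERPINH1, the collagen chaperone HSP47, had 0.08 ± 0.52 (SD, n = 4). FBN1, fibrillin, had -0.66 ± 0.92, with -1.97 on array 2, and 0.32 ± 1.14 with that array turned, and MFAP2 had -0.06 ± 0.47. LAMC1, a laminin chain, had 0.08 ± 0.19. limma called 0 of these genes, and 0 of them were of 1 sign on all 4 arrays as labelled. With array 2 turned, P4HA1 was lower on all 4, at -0.19 ± 0.11, and SERPINH1 higher on all 4, at 0.40 ± 0.25. Of all tested probes, 17.7% were then lower and 17.6% higher on all 4.

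Of 12 TGF-beta ligands, receptors and SMADs, 9 were tested, with array medians of 0.39, -0.17, 0.04 and 0.09. The ligand TGFB1 had 0.33 ± 0.57 and TGFB3 had 0.08 ± 0.83 (SD, n = 4), or 0.49 and -0.35 with array 2 turned. SMAD3, which carries the receptor signal to the nucleus, had 0.55, 0.53, 0.37 and 0.09 and was the 1 gene of the 9 that was positive on all 4 arrays as labelled, while with array 2 turned it had 0.12 ± 0.47 and TGFB1 was the 1 that was positive on all 4. Of 14 receptors of member proteins, 9 were tested, with array medians of -0.32, 0.43, 0.12 and -0.58. The integrin chains ITGB5 (0.18 ± 0.25) and ITGA2 (0.68 ± 0.29) were positive and TLR4, a receptor of innate immunity, negative (-0.17 ± 0.17) on all 4 arrays as labelled, which none of these 3 was with array 2 turned. EGFR (-0.81 ± 0.53) and ITGAV (-0.85 ± 0.55) were then negative on all 4 arrays and MET (0.37 ± 0.068), a growth factor receptor, positive. Of all tested probes, 3.94% were positive and 3.75% negative on all 4 arrays as labelled. With array 2 turned these shares were 17.6% and 17.7%. ITGAV, the alpha-v chain of periostin's integrin receptors, had -1.16, 0.43, -0.33 and -1.46 as labelled. These are the signs of POSTN, which EGFR also had and which 17.7% of all tested probes had. ITGB3, a beta chain that pairs with it, had -0.44, 0.49, 0.58 and -1.11, the signs of SPARCL1. ITGB1 had these signs too, at -0.69, 0.69, 0.37 and -0.64. The share of all tested probes with these signs was not counted. In these 2 lists limma called 0 genes, beside 0% of all tested probes.

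The named genes closest to a member were found by the root mean square difference of log2 ratio over the 4 arrays, among 1975 other genes with their brightest probes. DCN had the closest, NTRK3 at 0.045 and TMEM59 at 0.090, and 71 genes lay within 0.25 of it. TNC had NCK1 at 0.075 and SLC35F5 at 0.10. LUM had ZNF451 at 0.14 and TBCCD1 at 0.17, SPARC had RRAGD and LDB1, both at 0.14, and CTGF had SMAD3 at 0.14 and ADM at 0.16. POSTN and SPARCL1 had 0 genes within 0.25, and their closest were PDE4B at 0.34 and DMP1 at 0.54.

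The tissue label was checked against markers, of which many were not named on the array. Of 9 smooth muscle markers, 5 were named and all were tested, with summed processed signals of 172389 to 568912 in the non-treated channels and 202439 to 462534 with OXA. DES, the muscle intermediate filament desmin, had 0.20 ± 0.46 and ACTA2, smooth muscle actin, had -0.10 ± 0.40 (SD, n = 4). The medians of the smooth muscle list were -0.44, -0.11, 0.40 and -0.61, which has the sign of the member median on each array. Single genes differed, with DES (0.38) and CNN1 (0.24) positive on array 1 and MYLK (0.23) on array 2. The member median on array 2 was near 0, at -0.053. Of 8 fibroblast and stroma markers, THY1 alone was named, with summed signals of 14 to 122 over all channels, so stroma could not be followed through its own markers.

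Markers of other cells differed between the channels as well. Of 9 uterine epithelial markers, 4 were tested, with summed signals of 199 to 2052 without OXA and 82 to 8058 with it and medians of -1.46, 2.06, -1.04 and 1.98, whose mean of 0.38 became -0.65 with array 2 turned. On array 2, where POSTN and SPARCL1 were higher with OXA, and on array 4, where they were lower, epithelial markers were higher. By the labels these arrays had OXA in Cy3, so the epithelial medians were lower in Cy5 than in Cy3 on all 4 arrays. KRT8 differed on array 1, at 0.30. For the dye term, limma called 0% of all tested probes. It called 0% for OXA as well, with 2 residual degrees of freedom. Nothing about the epithelial markers is therefore read from it. Of 10 macrophage markers, 8 were tested, with summed signals of 1424 to 5404 without OXA and 1309 to 9092 with it. Their medians were 0.70, -0.66, 1.98 and 0.73, opposite in sign to POSTN on all 4 arrays. Such signs were seen for 5 of the 8 genes, and for 17.6% of all tested probes. CD163, with -0.64, 0.30, 1.18 and -0.32, instead had the signs of POSTN on arrays 1, 2 and 4. Of 6 endothelial markers, 4 were tested, with summed signals of 4188 to 7649 without OXA and 3255 to 9734 with it and medians of -0.40, -0.18, 0.26 and 0.59. Of 5 lymphocyte markers, 4 were named and 0 were tested, and 0 of 3 erythrocyte markers were named. The part of these cells in the ratios of the members was not tested.

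**Figure D5:**
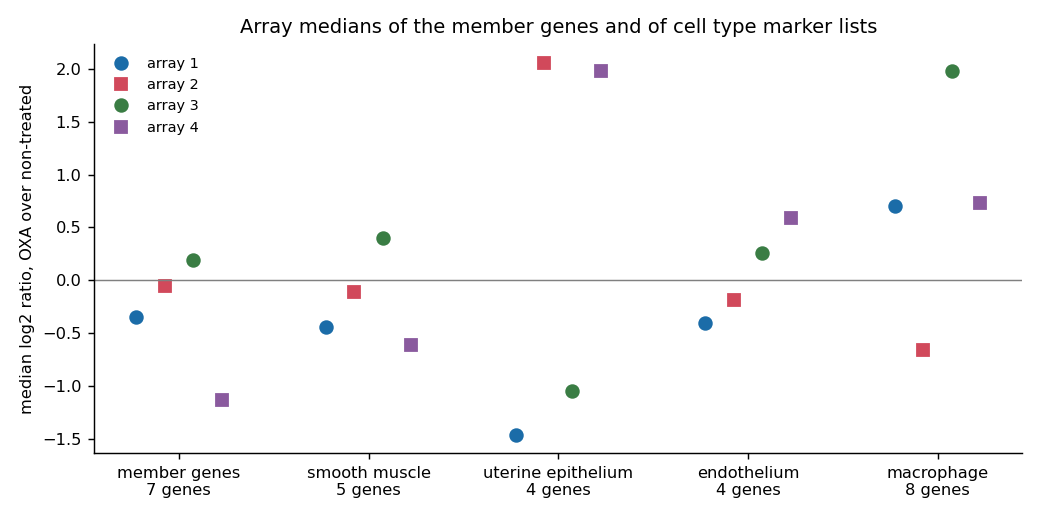
Median log2 ratio of OXA over non-treated (vertical axis, as labelled) on each array for the 7 member genes and for marker lists of at least 3 tested genes, coloured by array with squares for OXA in Cy3. The median of the smooth muscle list, though not each of its genes, has the sign of the member median on each array. The epithelial list is near 2 on arrays 2 and 4.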

How the data were processed

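All 4 arrays shared 1 slide and 1 scan, which leaves no such batch to fit. Per the file headers, the scanner output came from Feature Extraction 10.7.3.1. The deposited processed and median signals are linear intensity values, and LogRatio, also deposited, is on the log10 scale (Cy5 over Cy3), with its error. In the authors' value table the log2 ratios have no stated direction, scale or centring. Against LogRatio the slopes were 1.00 (arrays 1 and 3) and -1.00 (arrays 2 and 4). On each array 99.86% or more of the tested probes lay within 0.001. For these probes the value table thus runs as OXA over non-treated by the labelled dyes, with no further centring found. Over all probes with a single spot, tested or not, 61.6% to 83.0% lay that close. The column medians of the value table, over all probes, were 0.10, 0.10, -0.19 and 0.067.

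Spots of a probe were averaged, and outlier-flagged spots were left out. Accessions, without versions, were matched to RefSeq genes of Sscrofa11.1, which named 6700 probes of 3029 genes. limma 3.58.1 in R 4.3.3 fitted OXA and dye terms to the value table's ratios over 19505 tested probes (2 residual degrees of freedom), two-sided, with Benjamini-Hochberg adjustment, after a check on simulated data. The brightest tested probe of a gene was used unless stated. The members and gene lists were chosen with earlier results of these data known. The few arrays limit the precision. Where nothing shows separate animals behind the arrays, p-values measure only the spread between them. Named genes were the members, up to 4 of the brightest in each list, and the 2 closest genes by ratio. ITGAV, ITGA2, MET, TLR4 and TGFB1 were added after their values were seen. Alternatives were another background correction, loess, centring, filters, the mean of a gene's probes, array 2 turned, OXA as Cy5 throughout, and each array left out. A further gene list is not reported here.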

Additional observations from a re-analysis of the deposited data

How the results depend on the processing

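The median log2 ratio over the 7 genes, -0.33, became 0.26 if Cy5 held OXA throughout. It lay between -0.33 and -0.19 under the other settings with 4 arrays, among them normexp and loess on median signals (-0.28) and array 2 turned (-0.31). Leaving out 1 array gave -0.51 to -0.069, the latter without array 4. Of 84 values of single genes under an alternative, 7 moved by over 1 SD and 5 changed sign. The sign changed under that reading of the dyes for DCN, LUM, SPARCL1 and TNC, and for SPARCL1 without array 4 (0.070).

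limma called 0 probes for OXA under every setting with 4 arrays. In the main fit 237 had an unadjusted p under 0.05, and under the other settings with 4 arrays from 195 (strict filter) to 5264 (array 2 turned). Leaving out 1 array gave 1 to 1108 called probes, the most without array 2, with a spread pooled over all probes and 1 residual degree of freedom. For the dye term, limma called 0 probes under 6 alternatives with 4 arrays and 12 to 1160 with 1 array left out, the most without array 4. Those with an array left out, array 2 turned or median centring were chosen for this term after seeing the data. No paired analysis was possible because the arrays form 1 group and each array already sets its channels against each other. Signal over background did not limit the 35 tested member probes.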
